A study of Mus musculus with 12 samples.

Results

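The 10 genes described here are markers of the 2 blood vessel endothelial identities, 5 of veins (Nr2f2, Ephb4, Aplnr, Ackr1 and Nrp2) and 5 of arteries (Efnb2, Hey2, Gja4, Gja5 and Sox17). They were chosen by gene name, and all 10 were found among the 43346 genes of the deposited count table. The tissue was mouse vein taken 7 days after an operation. The AVF-CKD group (n = 6 libraries) had AVF-CKD surgery and gave the venous limb of the AVF, and the sham group (n = 6) had a sham operation and gave the jugular vein. The letters are read here as arteriovenous fistula and chronic kidney disease, which the labels do not spell out. The labels give no strain, age or sex. Operation, vessel and disease model go together in these groups and cannot be told apart. Nor do the labels say whether each library is a separate animal, so the p-values cover only library-to-library spread, which may be technical.

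Arteries and veins are lined by endothelial cells with different gene programmes. Notch signalling and SOXF transcription factors maintain the arterial state, and the nuclear receptor COUP-TFII, encoded by Nr2f2, keeps Notch signalling down in venous cells. The ephrin-B2 ligand on arterial cells and its receptor EphB4 on venous cells are the classical surface labels of the identities. A vein joined to an artery is exposed to arterial flow and pressure, and both surface labels have been followed in such veins.

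Total counts per library were 38653830 to 52003341 in AVF-CKD and 43445591 to 60142016 in sham. Levels are given as CPM, counts scaled to a common library total with TMM factors, which correct for composition. Libraries are called by group and title number, and a number does not pair libraries across the groups. All 10 genes passed the filter on low counts. Their counts per library went from 121 for Hey2 in AVF-CKD 2 to 7765 for Ephb4 in sham 1. Endothelial RNA was present in every library, with the summed level of 14 pan-endothelial genes (Pecam1, Cdh5 and others) at 1204, 1353 and 1767 CPM (lowest, median, highest) in AVF-CKD and 1371, 1649 and 1832 CPM in sham. The lowest sums of the 12 were those of AVF-CKD 1, 2 and 4. These are whole-vein libraries, in which fewer cells of a type and less RNA per cell cannot be told apart.

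No venous or arterial gene differed between the fistula vein and the sham vein at an edgeR quasi-likelihood adjusted p below 0.05, with adjusted p-values from 0.501 (Ackr1) to 0.906 (Gja4). Over the whole table this test called 0.0% of 18965 genes higher and 0.0% lower. Limma voom with sample weights called 0 as well, and DESeq2 called 0.559% of genes but none of the 10. At an unadjusted p below 0.05 there was 1 member of 10, Ackr1, against 1772 genes or 9.34% of all genes (4.08% of all genes in its direction, lower), so the members' share was near the background. In 0 of the 10 genes did the groups separate completely, against 0.638% of all genes. Fitted fold changes were negative for 4 of 5 venous genes, with a median log2 fold change of -0.19, and positive for 4 of 5 arterial genes, with a median of 0.16. Scaled to pan-endothelial genes, 3 of 5 venous genes were negative, with a median of -0.05, and the arterial median was 0.33. On that scale the median over all genes tested was itself 0.17. With 1 library left out, the arterial median ranged from 0.05 (without sham 2) to 0.30 (without sham 1). With TMM scaling, the median over all genes tested was 0.00, and 50.9% of them were negative. In 7 of the 10 genes, the bounds of the 95% interval were less than 2-fold away from equality. The interval of Gja5 reached 3.40-fold, that of Ackr1 began at 0.408-fold and that of Hey2 at 0.473-fold.

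**Figure D1:**
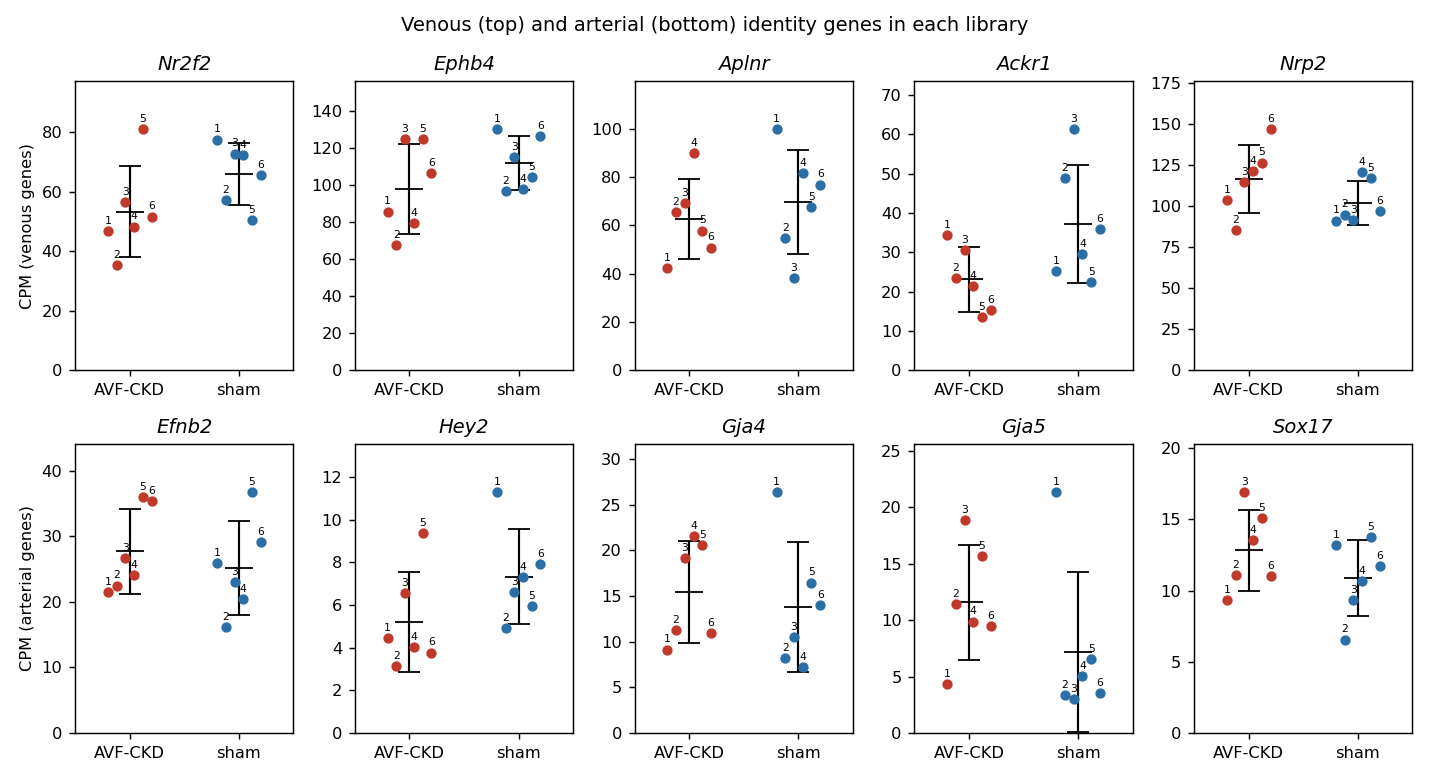
Level of each gene in CPM (vertical axes, starting at 0) in the 6 AVF-CKD libraries (left, red) and the 6 sham libraries (right, blue). Points are libraries with their title numbers, bars give the mean ± SD; the groups overlap in all 10 panels, and sham 1 stands at 21.4 CPM for Gja5.

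The genes can be compared with each other only per length. Per kilobase of the length given in the table, the mean over the 12 libraries was highest for Ephb4 (22.6 CPM per kilobase), then Ackr1 (21.5), Aplnr (17.9), Nr2f2 (12.2), Nrp2 (9.22), Gja4 (8.67), Efnb2 (6.11), Gja5 (2.96), Sox17 (2.48) and Hey2 (2.46). By this mean the 5 venous genes stood above the 5 arterial genes. The order holds for the tabulated lengths only. These are below the exonic bases in GENCODE for Nr2f2 (4863 against 8625), Efnb2 (4324 against 6855), Hey2 (2550 against 4593) and Gja5 (3166 against 5746). Ephb4 exceeded Ackr1 in 8 of 12 libraries, Ackr1 exceeded Aplnr in 5, and Nrp2 exceeded Gja4 in 7, so these neighbours were not separated beyond their spread. Gja5 exceeded Sox17 in 6 of 12, and Sox17 exceeded Hey2 in 6, so these did not differ beyond their spread either. The mean log2 CPM of the venous genes minus that of the arterial genes was 1.85, 2.32 and 2.81 (lowest, median, highest) in AVF-CKD and 2.01, 2.91 and 3.31 in sham. The AVF-CKD median was the smaller, and the ranges overlapped, with sham 1, sham 5 and sham 6 below the highest AVF-CKD library. This score is a description without a test.

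Nr2f2 (ENSMUSG00000030551, GRCm38 chr7:70351946-70366735, minus strand) encodes the transcription factor that sets venous fate. Its level was 35.4, 49.9 and 80.9 CPM (lowest, median, highest) in AVF-CKD and 50.4, 68.8 and 77.5 CPM in sham. The fistula libraries held both extremes, AVF-CKD 5 the highest of all 12 and AVF-CKD 2 the lowest, and 3 of them lay below every sham library. AVF-CKD over sham, the log2 fold change was -0.31 ± 0.17 (SE; edgeR adjusted p = 0.597), and without AVF-CKD 5 it was -0.47 (edgeR adjusted p = 0.337). The library kit does not mark strand, and 7.46% of the exonic bases of Nr2f2 in GENCODE lie under the opposite-strand transcript B130024G19Rik, at 6.49 CPM ± 2.07 in AVF-CKD and 8.45 CPM ± 1.84 in sham (SD, n = 6 each).

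The promoters of Nr2f2 and of the arterial gene Hey2 are shown together because Hey2 is a Notch target, Nr2f2 opposes Notch in veins, and their levels ran together over the libraries (r = 0.90). The RefSeq windows (GRCm38.p6, 250 bases before to 50 after the start, 5′ to 3′ on the gene's strand) are chr10:30842734-30843033 for Hey2 and chr7:70366697-70366996 for Nr2f2. Capitals mark 4 words searched on both strands, GTGGGAA (the core of RBPJ, the DNA-binding partner of Notch), ACAAT (SOX), AGGTCA (a nuclear receptor site) and AGGAAG (ETS).
Hey2: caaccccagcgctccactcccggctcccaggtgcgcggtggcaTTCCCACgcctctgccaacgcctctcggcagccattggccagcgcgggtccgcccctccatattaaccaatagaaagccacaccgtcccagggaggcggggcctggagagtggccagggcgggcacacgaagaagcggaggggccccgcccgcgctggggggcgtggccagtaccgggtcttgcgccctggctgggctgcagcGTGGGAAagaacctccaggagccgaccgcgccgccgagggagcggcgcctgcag
Nr2f2: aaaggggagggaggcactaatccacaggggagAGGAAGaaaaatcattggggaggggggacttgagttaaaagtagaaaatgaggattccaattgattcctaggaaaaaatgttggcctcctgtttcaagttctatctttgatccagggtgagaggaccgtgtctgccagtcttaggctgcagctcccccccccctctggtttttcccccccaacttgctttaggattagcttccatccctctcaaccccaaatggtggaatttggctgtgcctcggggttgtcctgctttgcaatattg
The Hey2 window holds the RBPJ word at base 44 (as TTCCCAC) and at base 247, and no other word. At least 1 RBPJ word occurs in 6.38% of the 32851 RefSeq promoter windows and 2 or more in 0.256%. The Nr2f2 window holds 1 ETS word, found in 35.4% of windows. A match in letters is not evidence of binding.

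Ephb4 (ENSMUSG00000029710, chr5:137350109-137378669, plus strand), the venous receptor for ephrin-B2, was at 67.4, 95.9 and 125 CPM in AVF-CKD and 96.5, 110 and 130 CPM in sham. The libraries below the sham range were AVF-CKD 1, 2 and 4, as for Nr2f2, and these were the ones with the lowest pan-endothelial sums. In another fit the libraries were scaled to the pan-endothelial genes, and on that scale the median log2 fold change of all genes was 0.17. There the log2 fold change of Ephb4 was -0.05 ± 0.12 (SE; edgeR adjusted p = 0.862), against -0.19 ± 0.15 (edgeR adjusted p = 0.736) with TMM.

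Aplnr (ENSMUSG00000044338, chr2:85136225-85139923, plus strand) encodes the receptor for the peptides apelin and Elabela and marks venous and sprouting endothelium. It had 42.3, 61.7 and 90.0 CPM in AVF-CKD and 38.2, 72.3 and 99.8 CPM in sham. The sham range enclosed every fistula library. Its log2 fold change, -0.16 ± 0.22 (SE; edgeR adjusted p = 0.861), was smaller than its SE. With 1 library left out it stayed negative, from -0.29 (without AVF-CKD 4) to -0.03 (without sham 1). On the pan-endothelial scale, where the median of all genes was 0.17, it was 0.02.

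Ackr1 (ENSMUSG00000037872, chr1:173331886-173333750, minus strand) encodes the atypical chemokine receptor of venular endothelium, which binds chemokines without signalling through G proteins and is also found on erythroid cells. Its level was 13.5, 22.4 and 34.4 CPM in AVF-CKD and 22.3, 32.7 and 61.3 CPM in sham. AVF-CKD 4, 5 and 6 lay below every sham library, and sham 2, 3 and 6 lay above every fistula library. The log2 fold change, -0.68 ± 0.28 (SE; edgeR adjusted p = 0.501), had the smallest p among the 10 genes, and it was -0.49 without sham 3. Scaled to the pan-endothelial genes, it was -0.50 ± 0.30 (edgeR adjusted p = 0.511). Summed erythroid genes ran from 3185 to 6090 CPM in AVF-CKD and from 1145 to 5504 CPM in sham, and their part in the Ackr1 values was not tested. In GENCODE, 25.7% of the exonic bases of Ackr1 also belong to a transcript of the neighbouring gene Cadm3 on the same strand, and how reads there were assigned is not stated. Cadm3 was at 28.0 CPM ± 5.47 in AVF-CKD and 29.6 CPM ± 6.60 in sham (SD, n = 6 each).

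Nrp2 (ENSMUSG00000025969, chr1:62703285-62818695, plus strand) encodes neuropilin-2, a co-receptor for VEGF-C and class 3 semaphorins on venous and lymphatic endothelium. Its fitted change was opposite in sign to those of the other 4 venous genes. It was at 85.4, 118 and 147 CPM in AVF-CKD and 91.1, 95.8 and 121 CPM in sham, with AVF-CKD 4, 5 and 6 above every sham library and AVF-CKD 2 below all of them. Its log2 fold change was 0.19 ± 0.12 (SE; edgeR adjusted p = 0.660) and 0.35 ± 0.16 on the pan-endothelial scale (edgeR adjusted p = 0.464). On that scale 10.6% of all genes had an unadjusted p below 0.05, as did 2 of the 10 members, Nrp2 and Sox17. The lymphatic endothelial list (Prox1, Lyve1 and 4 others) summed to 145, 204 and 335 CPM in AVF-CKD and to 160, 208 and 268 CPM in sham, with AVF-CKD 4 and 5 highest, and its part in the Nrp2 values was not tested.

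Ackr1 and Nrp2 are the shortest and the longest of the 10 genes in the table (1405 and 11842 bases), and both followed a balance between short and long genes that varied among the libraries. This balance, the median log2 deviation of the shortest quartile of genes minus that of the longest quartile, was -0.40 in AVF-CKD 5 and -0.33 in AVF-CKD 6. In the other fistula libraries it was -0.11 to 0.21, and in sham -0.15 to 0.21. It split by title number in both groups, at 0.09 to 0.21 in libraries numbered 1 to 3 and -0.40 to 0.01 in those numbered 4 to 6. The cause of this split was not tested. Over the 12 libraries it had r = 0.77 (Spearman rho = 0.72) with log2 CPM of Ackr1 and r = -0.83 (rho = -0.83) with that of Nrp2. The other members did not line up by length, with r of -0.14 for Gja4, the next shortest (1685 bases), -0.62 for Efnb2 (4324 bases) and -0.32 to -0.09 for the rest. These are descriptions of 12 libraries without a test. The genes whose levels were most like those of Ackr1, Commd6 (r = 0.93, 1322 bases) and Pin4 (r = 0.93, 651 bases), were short. Those most like Nrp2, Sbno1 (r = 0.93, 10197 bases) and Uggt1 (r = 0.93, 12853 bases), were long. With the length trend of each library entered as an offset, an alternative chosen after seeing the data, the log2 fold change was -0.65 ± 0.25 for Ackr1 (SE; edgeR adjusted p = 0.468). That of Nrp2 was 0.14 ± 0.08 (edgeR adjusted p = 0.614). Both kept their sign. Ackr1 was again the single member of 10 with an unadjusted p below 0.05, against 9.7% of all genes.

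**Figure D2:**
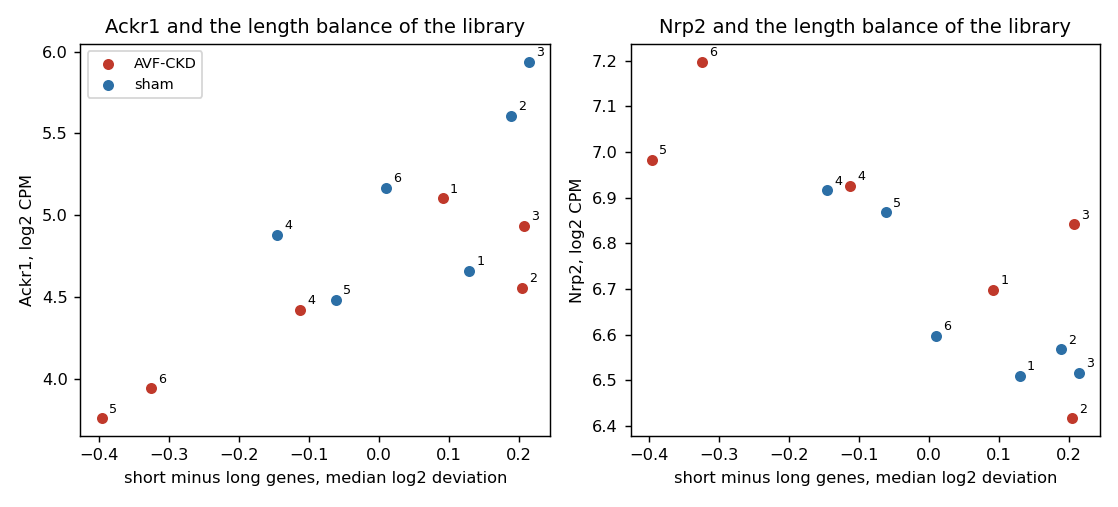
Log2 CPM of Ackr1 (left) and Nrp2 (right) against the short-minus-long balance of each library (horizontal axis, median log2 deviation of the shortest minus the longest quartile of genes). Red points are AVF-CKD and blue points sham, with title numbers; Ackr1 runs up (r = 0.77) and Nrp2 down (r = -0.83), with AVF-CKD 5 and 6 at the left end of both plots.

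Sox17 (ENSMUSG00000025902, chr1:4490931-4497354, minus strand) is a SOXF transcription factor gene of arterial endothelium. It was at 9.35, 12.3 and 16.9 CPM in AVF-CKD and 6.55, 11.2 and 13.7 CPM in sham, with 2 fistula libraries above the sham range and sham 2 below all others. Its difference on the log2 scale was 0.24 ± 0.19 (SE; edgeR adjusted p = 0.728). Per 1000 CPM of the pan-endothelial sum, Sox17 was at 7.76, 8.82 and 10.4 in AVF-CKD and 4.78, 6.86 and 8.34 in sham. On the pan-endothelial scale its log2 fold change was 0.40 ± 0.16 (edgeR adjusted p = 0.461). In GENCODE, 16.8% of its exonic bases lie under an opposite-strand transcript model.

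Hey2 (ENSMUSG00000019789, chr10:30832359-30842801, minus strand) encodes a transcriptional repressor that Notch signalling induces in arterial endothelium and in smooth muscle. Of the 5 arterial genes it alone had a negative fitted change. It was at 3.13, 4.24 and 9.39 CPM in AVF-CKD and 4.92, 6.97 and 11.3 CPM in sham, with 4 fistula libraries below the sham range. The log2 fold change was -0.49 ± 0.27 (SE; edgeR adjusted p = 0.597), -0.74 without AVF-CKD 5 (edgeR adjusted p = 0.341) and -0.33 without sham 1. Contractile smooth muscle genes had a median log2 fold change of -0.27 over 6 genes, 0 of them called, and summed to 989, 1508 and 1777 CPM in AVF-CKD and 1340, 2062 and 2174 CPM in sham. Their part in the Hey2 values was not tested.

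Efnb2 (ENSMUSG00000001300, chr8:8617434-8660773, minus strand) encodes ephrin-B2, the arterial ligand of EphB4. It was at 21.5, 25.4 and 36.0 CPM in AVF-CKD and 16.2, 24.4 and 36.7 CPM in sham, and every fistula library lay within the sham range. It had a log2 fold change of 0.14 ± 0.19, with an edgeR adjusted p of 0.863, and the 95% interval ran from 0.822-fold to 1.47-fold.

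Gja4 (ENSMUSG00000050234, chr4:127311421-127314039, minus strand) and Gja5 (ENSMUSG00000057123, chr3:97032416-97053634, plus strand) encode the gap junction proteins connexin 37 and connexin 40, which couple arterial endothelial cells. Gja4 was at 9.11, 15.2 and 21.5 CPM in AVF-CKD and 7.23, 12.2 and 26.4 CPM in sham. Its groups overlapped fully, with sham 1 highest and sham 4 lowest. The difference on the log2 scale was 0.16 ± 0.32 (SE; edgeR adjusted p = 0.906), and 0.45 without sham 1.

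Gja5 had the largest fitted fold change and the widest interval of the 10 genes. It was at 4.32, 10.7 and 18.8 CPM in AVF-CKD and 2.99, 4.28 and 21.4 CPM in sham. The highest value of all came from sham 1, while the other 5 sham libraries stood at 2.99 to 6.55 CPM, below 5 of the 6 fistula libraries. The log2 fold change was 0.70 ± 0.50 (SE; edgeR adjusted p = 0.700), and without sham 1 it was 1.44 (edgeR adjusted p = 0.559). Gja5 is also expressed by atrial heart muscle, and the part of such RNA in its values was not tested. The atrial muscle list summed to 21.7, 90.0 and 168 CPM in AVF-CKD and 18.0, 38.0 and 98.9 CPM in sham. The libraries highest for Gja5, sham 1, AVF-CKD 3 and AVF-CKD 5, had atrial sums of 42.2, 43.3 and 21.7 CPM, and the highest atrial sum belonged to AVF-CKD 2, with Gja5 at 11.4 CPM.

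The connexin promoters are shown because the genes are related and their levels ran together over the libraries (r = 0.74). The windows are chr4:127313990-127314289 for Gja4 and chr3:97032152-97032451 for Gja5, in GRCm38.p6, with capitals as above.
Gja4: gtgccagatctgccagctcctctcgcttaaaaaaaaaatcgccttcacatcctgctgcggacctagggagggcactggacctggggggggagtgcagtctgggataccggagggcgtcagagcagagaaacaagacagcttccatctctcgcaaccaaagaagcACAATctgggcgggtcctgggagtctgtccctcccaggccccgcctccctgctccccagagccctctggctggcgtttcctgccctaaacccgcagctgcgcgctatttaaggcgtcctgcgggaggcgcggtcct
Gja5: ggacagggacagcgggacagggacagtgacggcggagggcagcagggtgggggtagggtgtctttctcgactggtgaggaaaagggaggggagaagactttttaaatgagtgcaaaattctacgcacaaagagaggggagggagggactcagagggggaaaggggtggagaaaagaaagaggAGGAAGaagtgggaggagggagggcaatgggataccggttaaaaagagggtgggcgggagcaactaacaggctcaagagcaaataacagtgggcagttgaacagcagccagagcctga
The Gja4 window holds 1 SOX word (as ACAAT, base 165), a word found in 31.0% of windows, and the Gja5 window 1 ETS word (base 183). The windows share none of the 4 words. Among the other 4 promoters matched, that of Ackr1 holds the AGGTCA word once (16.3% of windows) and 3 ETS words, and those of Ephb4, Nrp2 and Efnb2 hold none. Promoter entries were found for 8 of the 10 genes; Aplnr and Sox17 had no entry.

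**Figure D3:**
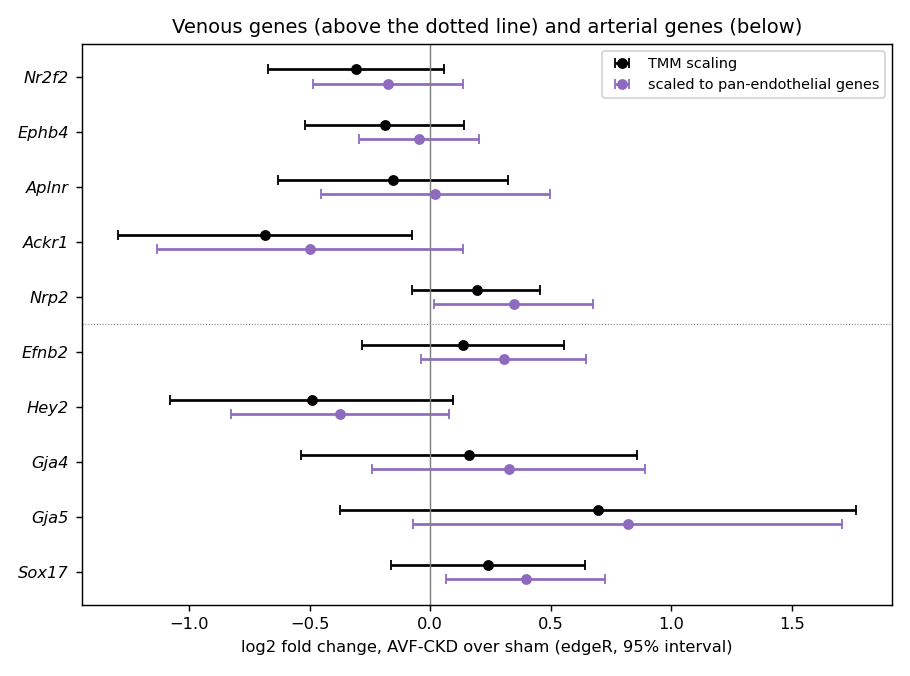
Log2 fold change of AVF-CKD over sham for each gene (horizontal axis; points are edgeR estimates, bars 95% intervals) with TMM scaling (black) and with scaling to pan-endothelial genes (purple). With TMM scaling the interval of Ackr1 alone leaves out 0. With pan-endothelial scaling, where the median over all genes tested is 0.17, those of Nrp2 and Sox17 do. No adjusted p is below 0.05 on either scale.

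Variation among the libraries joined members across the venous and arterial lists as well as within them. Over the 12 libraries, the 45 pairs of members were compared by Pearson r of log2 CPM. The 10 venous pairs had a median r of 0.07, the 10 arterial pairs 0.48 and the 25 pairs of a venous with an arterial gene 0.20. These correlations describe 12 libraries that share their cell composition and were not tested. For the closest pairs, r after centring on the group means or the rank of the partner among all other genes is given too.

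The closest pair joined an arterial to a venous gene. Hey2 and Nr2f2 had r = 0.90 (Spearman rho = 0.89), and r was 0.87 after centring on the groups. By r with Nr2f2, Hey2 held rank 7 of 18964 genes, and by r with Hey2, Nr2f2 held rank 5. Without the libraries farthest out for Nr2f2, AVF-CKD 2 and AVF-CKD 5, r was 0.84. Ephb4 moved with both, at r = 0.84 (rho = 0.83) with Hey2 and 0.82 (rho = 0.78) with Nr2f2. Without AVF-CKD 2 and AVF-CKD 4, the libraries farthest out for Ephb4, its r was 0.73 with Hey2 and 0.63 with Nr2f2. Without AVF-CKD 2 and AVF-CKD 5, its r with Nr2f2 was 0.65. Hey2 had r of 0.18 with Gja5, 0.34 with Sox17 and 0.42 with Gja4 over the 12 libraries, and 0.59, 0.65 and 0.61 with the same genes after centring on the groups. The genes most like Nr2f2 were Pcdhb7 (r = 0.96) and Zfp58 (r = 0.93), those most like Ephb4 were Fgfr3 (r = 0.95) and Unc13b (r = 0.94), and those most like Hey2 were Cyp2j6 (r = 0.92) and Zfp418 (r = 0.91). The opposite-strand transcript B130024G19Rik held rank 5 with Nr2f2 (r = 0.91), and the part of reads from the bases they share was not tested.

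The arterial genes Gja4, Gja5 and Sox17 varied together. Gja4 and Sox17 had r = 0.79 (rho = 0.84, 0.79 after centring), with Sox17 at rank 28 of 18964 by r with Gja4. Gja5 and Sox17 had r = 0.75 (rho = 0.74, 0.71 after centring). Their r was 0.76 without sham 1 and sham 3, and 0.68 without sham 2 and AVF-CKD 3. Gja4 and Gja5 had r = 0.74 (rho = 0.75, 0.76 after centring), and r was 0.68 without sham 1 and sham 4. Sham 1, AVF-CKD 3, AVF-CKD 4 and AVF-CKD 5 were the highest libraries for Gja4, and 3 of these were also highest for Gja5. By the same measure, the genes most like Gja5 were Dll4 (r = 0.83), the arterial Notch ligand, and Klf10 (r = 0.81). Those most like Sox17 were Sema3g (r = 0.90), an arterial class 3 semaphorin, and Tgif2 (r = 0.90, rho = 0.88). Those most like Gja4 were Pald1 (r = 0.90) and Shc1 (r = 0.88). Dll4 was at 10.9 CPM ± 2.31 in AVF-CKD and 8.66 CPM ± 2.86 in sham (SD, n = 6 each), which on the log2 scale differed by 0.34 ± 0.22 (SE; edgeR adjusted p = 0.663). Sema3g was at 14.7 CPM ± 4.37 in AVF-CKD and 10.8 CPM ± 4.41 in sham (edgeR adjusted p = 0.651).

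Efnb2 stood between these genes, with r = 0.70 (rho = 0.75) with Sox17 and 0.42 with Gja5, and was most like Col18a1 (r = 0.95) and Prkar1a (r = 0.92). Of the venous genes, Aplnr had its highest r with Gja4 (0.54), Sox17 (0.49) and Gja5 (0.49) and 0.11 with Nr2f2. Without sham 3 and AVF-CKD 1, the libraries farthest out for Aplnr, these were 0.44 with Gja4, 0.34 with Sox17 and 0.20 with Gja5, and without sham 1 and sham 3 the r with Gja5 was 0.13. Aplnr was most like Trp53i11 (r = 0.92) and Hoxb7 (r = 0.89). Ackr1 ran opposite to 4 of the 5 arterial genes, with r = -0.69 with Gja5, -0.69 with Efnb2, -0.61 with Sox17 and -0.47 with Gja4, and had r = 0.05 with Hey2. Its r with the venous gene Nrp2 was -0.66. The short-minus-long balance had r = 0.77 with Ackr1. With the genes opposite to Ackr1 it had -0.83 (Nrp2), -0.62 (Efnb2), -0.32 (Sox17), -0.20 (Gja5) and -0.14 (Gja4). The part of this balance in the correlations was not tested.

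**Figure D4:**
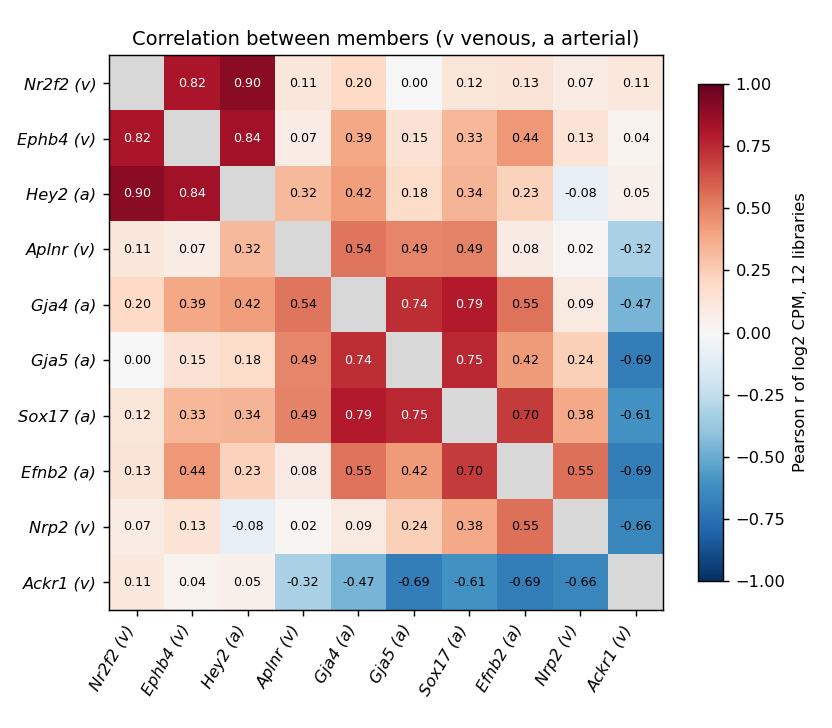
Pearson r of log2 CPM between the 10 genes over the 12 libraries (colour scale from -1 to 1, v for venous and a for arterial genes; the diagonal is grey). Nr2f2, Ephb4 and Hey2 form a block of 0.82 to 0.90, Gja4, Gja5 and Sox17 a block of 0.74 to 0.79, and Ackr1 is negative with each of Gja4, Gja5, Sox17, Efnb2 and Nrp2. The part of the short-minus-long balance in these values was not tested. Without AVF-CKD 2 and AVF-CKD 4, the r of Ephb4 was 0.73 with Hey2 and 0.63 with Nr2f2.

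**Figure D5:**
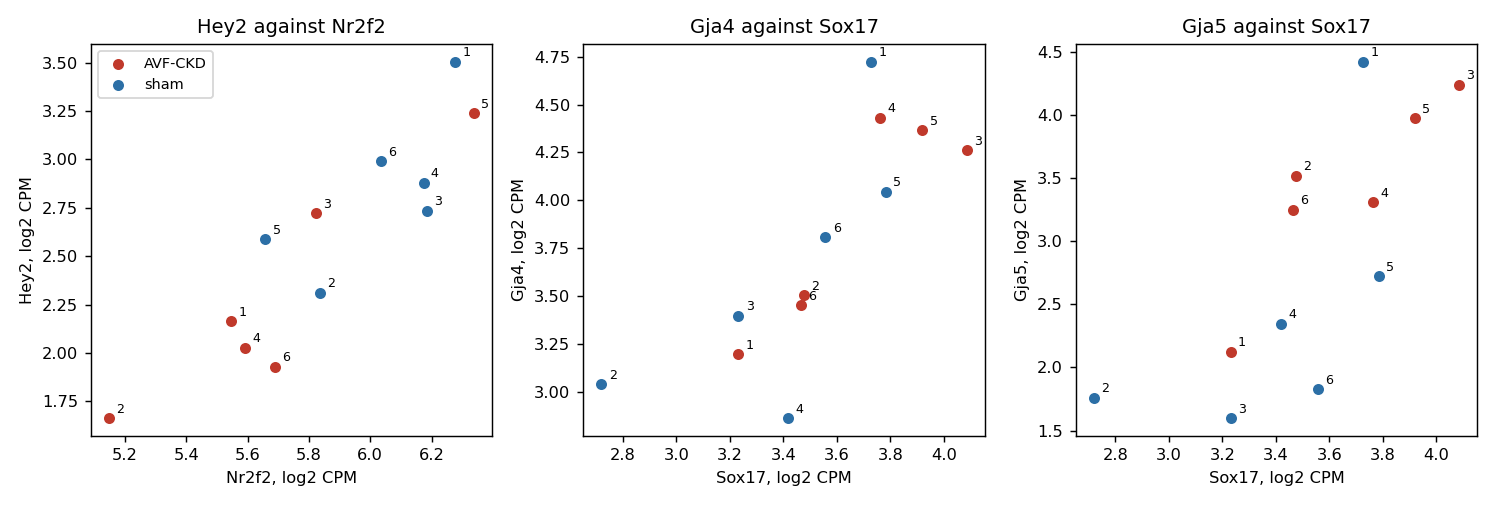
Log2 CPM of Hey2 against Nr2f2 (left), Gja4 against Sox17 (middle) and Gja5 against Sox17 (right), with AVF-CKD libraries in red, sham libraries in blue and title numbers beside the points. r is 0.90 on the left, 0.79 in the middle and 0.75 on the right, where 5 AVF-CKD libraries and sham 1 stand above the other sham libraries on the Gja5 axis.

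Other endothelial genes of either identity gave 0 calls in each direction. Of 10 further venous-enriched genes 9 were tested, 7 with negative and 2 with positive fold changes (median -0.27). Vwf, which encodes von Willebrand factor, was at 322 CPM ± 93.3 in AVF-CKD and 390 CPM ± 96.4 in sham (SD, n = 6 each; edgeR adjusted p = 0.718), and Emcn, which encodes endomucin, differed by -0.37 ± 0.15 on the log2 scale (SE; edgeR adjusted p = 0.492). Of 16 further arterial-enriched genes 5 were positive and 11 negative (median -0.06). The most abundant was Nrp1, the VEGF co-receptor, at a difference of -0.06 ± 0.10 on the log2 scale (SE; edgeR adjusted p = 0.877), and the smallest p belonged to the endothelial Notch receptor gene Notch4 (0.34 ± 0.15, edgeR adjusted p = 0.524). Of 14 ligands and partners of the members (Apln, Vegfc, Sema3f and others) 13 were tested, 6 positive and 7 negative (median 0.00). Plxna1, a plexin that signals with neuropilins, led them both in level and in p, at 117 CPM ± 21.6 in AVF-CKD and 89.4 CPM ± 14.2 in sham (SD, n = 6 each; edgeR adjusted p = 0.443). Of the 14 pan-endothelial genes 13 were negative (median -0.14), with Pecam1 at -0.14 ± 0.14 (SE; edgeR adjusted p = 0.797) and Tek at -0.32 ± 0.13 (edgeR adjusted p = 0.498). An unadjusted p below 0.05 was reached by 1 gene each of the venous, arterial and ligand lists and by 3 of the 14 pan-endothelial genes, against 9.34% of all genes. Scaled to pan-endothelial genes, the median of the further arterial genes was 0.10, and that of all genes tested was 0.17.

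Markers of other cells that a vein sample can hold also gave 0 calls with edgeR, and at an unadjusted p below 0.05 there were 1 lymphatic gene, 2 genes each of smooth muscle, fat, atrial muscle and nerve, and 0 of the other lists, against 9.34% of all genes. Median log2 fold changes were 0.18 for lymphatic endothelium (Pdpn 0.22), -0.27 for smooth muscle (Acta2 -0.38, Cnn1 -0.71), -0.14 for pericytes (Rgs5 -0.34, Kcnj8 -0.32) and -0.20 for fibroblasts (Col1a1 0.20, Dpt -0.28). They were 0.20 for macrophages (Lyz2 0.20, Csf1r 0.32), 0.26 for erythroid genes (Hbb-bs 0.42), -0.86 for fat (Fabp4 -0.80, Adipoq -1.18) and -0.25 for skeletal muscle (Acta1 -0.10, Pvalb -0.41). For atrial muscle the median was 0.95 over the 4 of 7 genes tested (Myl4 1.15, Tnnt2 1.26), for nerve and Schwann cells 0.30 (Mbp 0.35) and for epithelium and glands -0.98 over 4 of 6 genes (Krt18 -0.61, Krt8 -2.04). Each list other than atrial muscle and epithelium had all 6 genes tested, and edgeR adjusted p-values of the named genes ran from 0.390 (Adipoq) to 0.976 (Acta1). Single libraries set several of these medians. Without sham 6 the median was 0.11 for epithelium and glands and -0.34 for fat, and without sham 4 it was 0.28 for skeletal muscle. Without AVF-CKD 5 it was -0.15 for lymphatic endothelium and -0.12 for nerve and Schwann cells. Without sham 1 it was 0.06 for erythroid genes and -0.02 for pericytes. Of all these lists, 0 genes were at 0 in every library. The part of these cells in the values of the 10 genes was not tested.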

How the data were processed

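RNA-seq of 12 vein libraries was analysed from a single deposited table. Per the submitters' processing notes, TopHat2 2.1.0, featureCounts and edgeR were used with GRCm38, without the step of each. The kit (TruSeq RNA v2, per the labels) does not mark strand, and the rules of counting stand as not given in the sources used here. Deposited counts are whole numbers per gene and were used as deposited. The deposited RPKM values were not used for tests. By their size, the authors divided counts by the tabulated length and by a library total 1.15 to 1.19 times the summed counts.

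Groups came from the sample titles. Counts were filtered with filterByExpr, TMM-scaled and fitted in edgeR 4.0.16 (R 4.3.3; glmQLFit, glmQLFTest) with group as the single term, Benjamini-Hochberg over 18965 genes, threshold 0.05. SE came from the fold change and F. Log2 CPM used a prior count of 2. DESeq2 1.42.0 and limma 3.58.1 voom with sample weights (voomWithQualityWeights) were alternatives, with other scalings, filters, terms and left-out libraries. The edgeR fit was tested on simulated counts. Named genes were the members, the most abundant and smallest-p gene of each list, and for likeness the 2 properly named genes of highest r per member. Some further choices (B130024G19Rik and Cadm3, libraries singled out) followed the values. Members and lists were chosen with earlier results of these data known. Symbols followed Ensembl identifiers (42462 of 43346 in GENCODE M21); coordinates are the table's. Promoters are from RefSeq. Intervals at these depths cover the spread between libraries.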

Additional observations from a re-analysis of the deposited data

Results flagged for a closer look

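In 56 groups of 6 libraries (each member and each gene list, in each group, and the venous minus arterial score), 5 held a library far from the rest by Dixon's gap test; chance marks about 1 group in 20. For Gja5 it was sham 1 with 21.4 CPM, where the rest of sham ranged over 2.99 to 6.55 CPM. The fat genes summed to 2573 CPM in sham 6 and between 578 and 1171 CPM elsewhere in sham. The skeletal muscle genes summed to 10290 CPM in sham 4, against 337 to 3985 CPM in the rest of sham. The epithelium and gland genes summed to 38.2 CPM in sham 6, where the other sham libraries had 1.70 to 7.24 CPM. In AVF-CKD 2 the epithelium and gland genes summed to 11.2 CPM, with 3.04 to 5.08 CPM in the other AVF-CKD libraries.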

How the results depend on the processing

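No member passed an adjusted p below 0.05 under any of the 25 alternatives, and 2 changed sign: Aplnr to 0.021 when scaled to pan-endothelial genes and Gja4 to -0.19 with title numbers 1 to 3 only. The members at an unadjusted p below 0.05 varied. In the limma voom fit with sample weights they were Nr2f2 and Hey2, against 2124 of 18965 genes, and Ackr1 had an unadjusted limma p of 0.0576. Without AVF-CKD 5 they were again Nr2f2 and Hey2 with edgeR, against 1925 genes. Without sham 1 they were Ackr1 and Gja5, against 1374 genes. With title numbers 4 to 6 only they were also Ackr1 and Gja5, against 2022 genes. There were 0 such members without sham 2, sham 3, AVF-CKD 4 or AVF-CKD 6. The number of genes called over the whole table was 0 with edgeR, 106 with DESeq2, and 0 to 1 when a library was left out (1, Il6ra, without AVF-CKD 3). The venous median was -0.047 when scaled to pan-endothelial genes and -0.28 to -0.14 with a library left out. The arterial median was 0.33 when scaled to pan-endothelial genes and 0.05 to 0.30 with a library left out. The pan-endothelial scale moved the median over all genes tested to 0.17. Leaving out sham 1 moved Gja5 to 1.44. With title numbers 1 to 3 only, the medians moved to -0.72 for lymphatic, -0.50 for fibroblast, 1.24 for erythroid, -0.39 for nerve, 1.06 for skeletal muscle and 0.80 for epithelium genes. With numbers 4 to 6 only they moved to 0.087 for fibroblast, -1.77 for skeletal muscle and -2.79 for epithelium genes. Members moved between these subsets too. Nr2f2 was at -0.58 with numbers 1 to 3 only (edgeR adjusted p = 0.465) and -0.06 with 4 to 6 only (0.938). Gja5 was at 0.31 (0.917) and 1.21 (0.412), and Gja4 at -0.19 (0.905) and 0.49 (0.637). In the limma voom fit with sample weights the epithelium median was 0.03, the lymphatic -0.12 and the nerve -0.07. The cause was not tested. The title numbers are shared by the groups, but number by number the libraries did not deviate together (r from -0.11 to 0.28 over 6 pairs, and 2 of 6 fistula libraries correlated best with their own number). That check does not cover the split of numbers 1 to 3 from 4 to 6 in the short-minus-long balance, which both groups showed. With this split as a term 0 genes were called, and 2529 had an unadjusted edgeR p below 0.05, against 1772 without it. Among these 2529 were 2 members. Ackr1 stood at -0.71 ± 0.21 (SE; edgeR adjusted p = 0.241, the lowest of any member in any setting). Nrp2 stood at 0.185 ± 0.083 (edgeR adjusted p = 0.368). With the replicate block 0 genes were called, Gja5 stood at 1.09 (edgeR adjusted p = 0.525) and Ackr1 at -0.68 (0.418), and no member changed sign. With 6 libraries a group, the widest interval among the members was that of Gja5, from 0.772-fold to 3.40-fold.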
